A study of Mus musculus with 4 samples.

Results

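Interferon-stimulated genes are genes whose transcription goes up when a cell meets interferon. A list of 41 of them was looked up by symbol in an expression table of mouse spinal cord, and 40 were found among its 18674 gene names, in 51 of its 23750 rows. Gbp7 had no row. Every gene found was kept, however low its level.

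Lumbar spinal cord was taken from mice without a transgene (wild type, WT) and from G93A mice, a model of amyotrophic lateral sclerosis (ALS) that carries a mutant human SOD1 transgene, with or without spermidine (SD), a natural polyamine. There were 4 conditions with 1 library each, WT vehicle and G93A vehicle without SD, and WT + SD and G93A + SD with it, so that the spread between replicates is unknown and no p-value is given. By the sample labels SD was given 4 times a week over 30 days, and tissue was collected at an age of 100 days. Injection into the peritoneum at 5 mg/kg is described for mice treated over a longer time, and no dose is stated for the sequenced mice. The vehicle is PBS in the sequencing methods and saline elsewhere, and the sample labels enter it as no treatment. The G93A animals were of the H1 high-expresser line kept on a mixed B6/SJLF1 background, treated animals were male, and how many animals stand behind a library was not given in the sources used here.

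Interferons are secreted proteins that act through paired receptors on the cell surface, the kinases JAK1, JAK2 and TYK2, and STAT transcription factors. Type I interferon assembles a complex that holds STAT2 and IRF9 and binds the interferon-stimulated response element (ISRE) in gene promoters, while interferon gamma acts mainly at the gamma activated site (GAS). The genes switched on encode sensors of foreign nucleic acid, proteins that block steps of viral growth, and regulators that strengthen or end the response. In the spinal cord, microglia, astrocytes, endothelial cells and neurons can all respond.

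Values are RPKM, read counts scaled to transcript length and to sequencing depth, a unit inferred from the values since the table names none. The estimated depth lay between 36800000 and 38600000 read pairs, and the summed RPKM between 376852 and 393328. Markers fixed for spinal cord cell types were present: the 7 oligodendrocyte markers summed to 9009 and 9284 RPKM in WT and 7498 and 6899.9 RPKM in G93A, vehicle before SD, and the 7 motor neuron markers to 406 and 384 RPKM in the WT libraries (vehicle, then SD) and to 220.2 and 143 RPKM in the G93A libraries. Nefh alone made up 327, 313, 160 and 99.2 RPKM of the motor neuron sums. With and without SD, 6 of the 7 motor neuron markers were lower in G93A, and Isl1 was slightly higher. The 13 microglia and macrophage markers summed to 189.8, 175, 1108 and 1181 RPKM in the same order, the 8 astrocyte markers to 1497, 1435, 3513 and 4077 RPKM, and the 7 endothelial markers to between 62.9 and 81.1 RPKM. The 11 T and NK cell markers summed to between 0.136 and 1.43 RPKM, with Cd3d, Cd3e, Cd8a, Nkg7 and Ncr1 at 0 in WT vehicle. No marker was at 0 in all libraries. In bulk tissue, fewer cells of a type and less RNA per cell cannot be told apart.

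The promoters of these genes were examined for the response elements, because the ISRE is what the type I interferon complex binds. RefSeq (GRCm38.p6) promoters, each 300 bases long with 250 before and 50 after the start of transcription, were at hand for 29 of the 40 genes, in 33 promoters. The ISRE core GAAANNGAAA, searched on both strands, was present in 16 of the 33 (48.5%), against 3.44% of all 32851 promoters in the reference. The GAS core TTCNNNGAA, searched likewise, was present in 7 (21.2%), against 8.30% of all promoters. A match of letters is a description and not a shown binding site.

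Windows around the ISRE core are printed for 9 of the 16 genes that have one, with 10 bases on each side, in the direction of transcription and with the core in capitals. Those of Ddx58, Ifih1, Stat2, Oas1a, Oas3, Ifitm3 and Irgm1 are not printed. The sensors, the transcription factors and the OAS family are therefore not among the 9. Cores that overlap run together, and a core on the other strand reads TTTCNNTTTC.
Isg15: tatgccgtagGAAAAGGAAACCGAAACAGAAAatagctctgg
Ifit1: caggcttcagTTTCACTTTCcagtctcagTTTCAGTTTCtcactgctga
Ifit3: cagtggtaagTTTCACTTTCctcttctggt
Ifitm2: ccaccaacagGAAAAGGAAAttgctagaga
Bst2: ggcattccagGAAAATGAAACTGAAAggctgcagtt
Gbp2: actcttttagTTTCACTTTCactgtcttaa
Gbp3: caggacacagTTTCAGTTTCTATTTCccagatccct
Igtp: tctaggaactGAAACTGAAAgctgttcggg
Rsad2: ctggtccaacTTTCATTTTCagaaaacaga
The windows lie at chr4:156200865-156200906 (minus strand) for Isg15, chr19:34640775-34640823 (plus) for Ifit1, chr19:34583363-34583392 (plus) for Ifit3, chr7:140955988-140956017 (minus) for Ifitm2, chr8:71537577-71537612 (minus) for Bst2, chr3:142620594-142620623 (plus) for Gbp2, chr3:142559989-142560024 (plus) for Gbp3, chr11:58199512-58199541 (plus) for Igtp and chr12:26456553-26456582 (minus) for Rsad2. In the GENCODE M21 annotation of GRCm38 they lie outside genes, just upstream of the gene named, except that of Gbp2, which overlaps an exon of Gbp2 itself. The first core begins 78 bases before the start in Isg15, which has 3 cores, 104 before it in Ifit1, 130 before it in Bst2 and 120 before it in Rsad2. Ifit3 has a further core, which begins 122 bases before its start.

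No ISRE or GAS core was found in the promoter window of Cmpk2, the single gene of the list with both G93A values below both WT values. It is shown from 250 bases before its start, at chr12:26468965-26469214 on the plus strand of GRCm38.p6, and has no capitals because neither core occurs in it. The same was true of 9 other genes with promoters, among them Lgals3bp, Irf9 and Irf7, and all 9 had both G93A values above both WT values.
Cmpk2: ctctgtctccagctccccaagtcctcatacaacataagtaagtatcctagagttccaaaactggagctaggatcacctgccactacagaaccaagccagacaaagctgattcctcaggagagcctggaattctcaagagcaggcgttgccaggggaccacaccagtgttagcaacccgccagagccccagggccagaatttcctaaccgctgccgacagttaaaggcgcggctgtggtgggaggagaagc
The 16 genes with the ISRE core had a median log2 fold change of 0.86 in G93A vehicle against WT vehicle, the 13 genes with a promoter and no such core had 0.61, and the 11 genes without a promoter in the reference table had 0.76. In G93A + SD against WT + SD the 3 medians were 1.43, 1.09 and 1.001, in WT + SD against WT vehicle -0.20, -0.17 and -0.43, and in G93A + SD against G93A vehicle 0.15, 0.09 and -0.04. Fold changes here and hereafter are log2 ratios after adding 0.1 RPKM to each value, which understates the change of low genes.

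The first comparison asks how the genes differ between G93A and WT spinal cord without SD. Interferon-stimulated genes were mostly higher in G93A. A gene was called where the fold change reached 1.5-fold, and 23 of the 40 were called higher in G93A vehicle, against 14.4% of all names. Only Cmpk2 was called lower, against 5.31% of all names, and 16 were called neither way. With 1 RPKM added in place of 0.1, 12 genes were called higher, against 8.31% of all names, and 0 lower, against 1.9%. The median log2 fold change of the 40 genes was 0.70, against 0.05 over all names. Their summed level went from 103 RPKM (WT) to 223 RPKM (G93A) under vehicle, 2.16 times as high. Ifitm3 and Lgals3bp made up 23.0% of that sum in WT vehicle and 38.5% in G93A vehicle, and without them the ratio was 1.72.

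The same contrast was wider where both genotypes had received SD. In G93A + SD against WT + SD, 35 of the 40 genes were called higher, against 17.1% of all names, and Cmpk2 was again the only one called lower, against 7.82% of all names. With 1 RPKM added, 24 were called higher, against 10.4% of all names, and 1 lower, against 4.19%. The median log2 fold change was 1.15, against 0.05 over all names, and the summed level was 88.3 RPKM in WT + SD and 243 RPKM in G93A + SD, 2.75 times as high. The genotype comparisons share no library, and 22 genes were called higher in both, against 11.6% of all names, 13 with SD only, against 5.5%, and 1, Dhx58, with vehicle only, against 2.82%. Under vehicle, the 13 called with SD only had log2 fold changes between 0.06 (Oas2) and 0.58 (Igtp), all on the same side and short of the threshold. Both G93A libraries lay above both WT libraries for 37 of the 40 genes, against 39.7% of all names, and below them for Cmpk2 only, against 28% of all names.

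**Figure D1:**
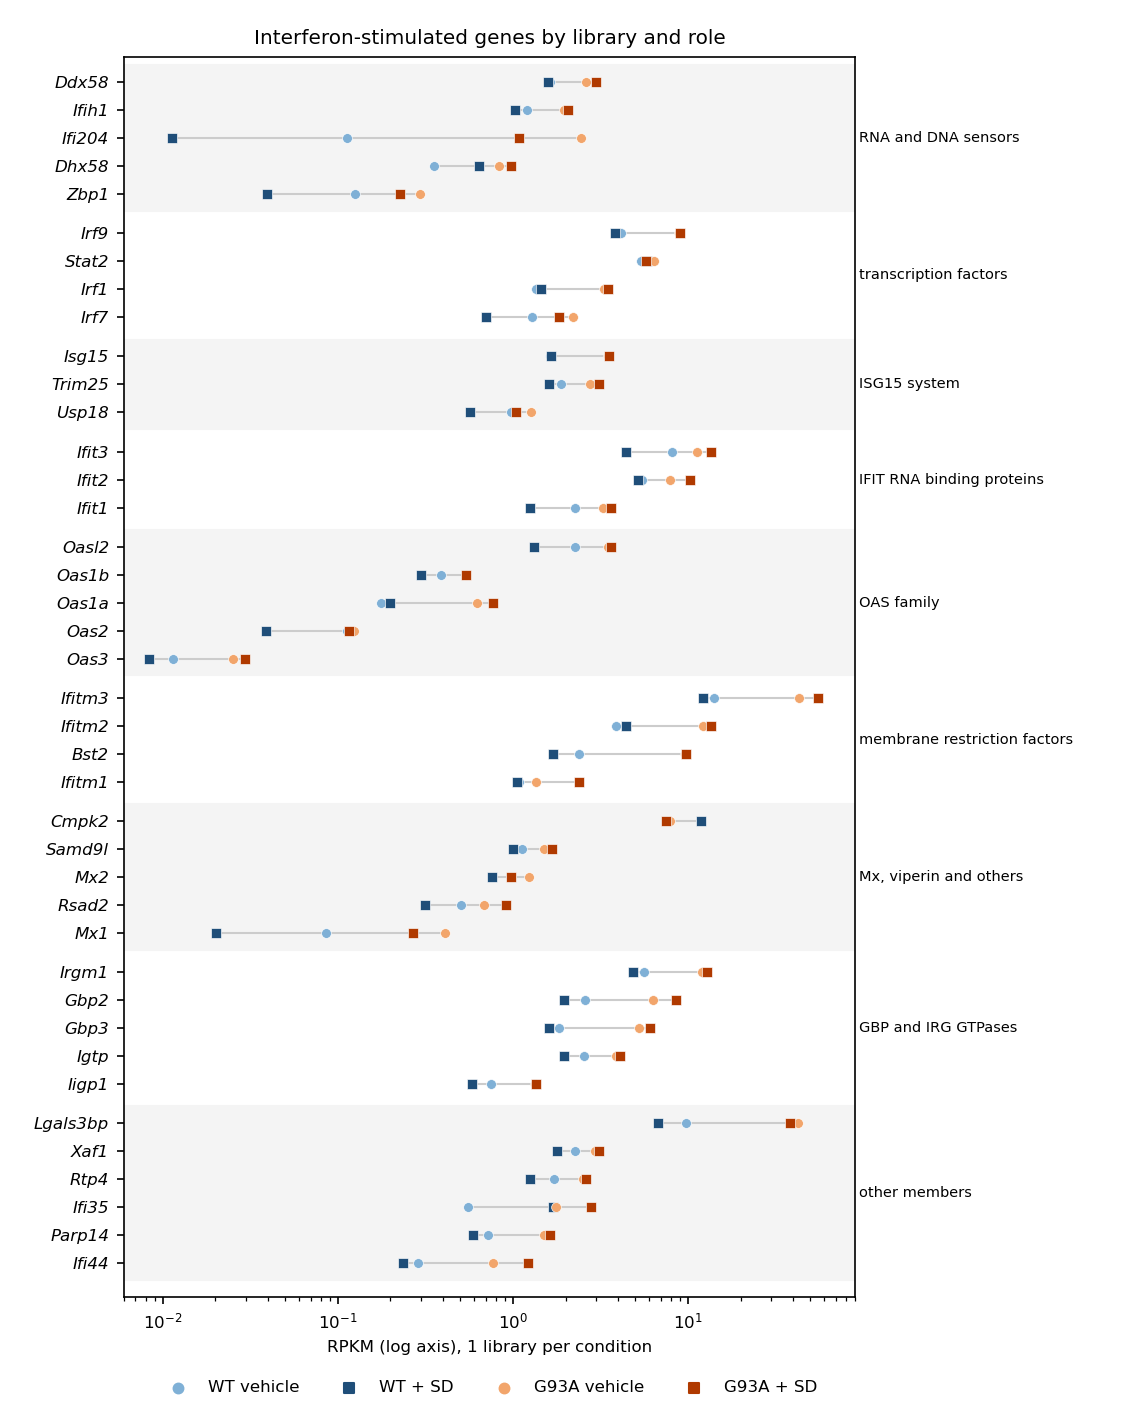
RPKM of each of the 40 interferon-stimulated genes on a log axis, 1 point per library, grouped by what the proteins do, with circles for vehicle, squares for SD, blue for WT and orange for G93A. Both orange points lie to the right of both blue points for 37 genes, Cmpk2 has the reverse order, and WT + SD is the lowest library for 32 genes.

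Among the sensors of RNA and DNA, all 5 were called higher in G93A vehicle and 4 of 5 in G93A + SD, with median log2 fold changes of 0.82 and 0.94. Ddx58, which encodes the RNA sensor RIG-I, had 1.63 and 1.58 RPKM in the WT libraries (vehicle, then SD) and 2.63 and 2.98 RPKM in the G93A libraries, log2 fold changes of 0.66 and 0.87 between genotypes under vehicle and under SD. Ifih1, which encodes the RNA sensor MDA5, had 1.20, 1.03, 1.95 and 2.07 RPKM in the same order, used for all genes from here on. Both RNA sensors differed more between genotypes than within them. Dhx58, whose product LGP2 regulates both of them, ranged from 0.353 RPKM in WT vehicle to 0.971 in G93A + SD, with 0.641 in WT + SD. Zbp1, a sensor of nucleic acid in the Z form, ranged from 0.0394 to 0.296 RPKM. Ifi204, a DNA binding protein of the IFI200 family, had 0.113, 0.0114, 2.44 and 1.09 RPKM. The gap between genotypes was wide for Ifi204, but its WT + SD value corresponds to an estimated 1.0 read pair, so that no fold against that library is printed. Of its 53-base windows, 28.6% also occur in other genes, most of them in Ifi211.

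Of the transcription factors that carry the signal, 3 of 4 were called higher in both genotype comparisons, with medians of 0.91 and 1.21. Irf9, the DNA binding part of the type I complex, had 4.14, 3.81, 8.89 and 9.001 RPKM, log2 fold changes of 1.08 and 1.22. Irf1, a factor induced early by interferon gamma, had 1.35, 1.45, 3.32 and 3.48 RPKM, with 1.23 and 1.21. In both of them the libraries fell into a WT pair and a G93A pair, with SD making little difference. Irf7, which amplifies type I interferon transcription, had 1.28, 0.702, 2.20 and 1.83 RPKM, lower in WT + SD by 0.79 on the log2 scale. Stat2, the partner of Irf9 in the type I complex, had 5.39, 5.84, 6.40 and 5.79 RPKM, and its libraries overlapped between genotypes. Exons of Irf9, Irf7 and Irf1 overlap those of Rnf31, Phrf1 and Gm17334 in the annotation, and those of Usp18, Parp14 and Rtp4 overlap predicted genes. The 53-base windows of these transcripts that also occur in another gene's transcripts were 2.58% for Irf9, 2.35% for Irf1, 4.30% for Usp18, 0.801% for Parp14 and 0% for Irf7 and Rtp4.

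The ISG15 system attaches and removes a ubiquitin-like tag. Isg15, the tag itself, had 1.63, 1.66, 3.52 and 3.53 RPKM, log2 fold changes of 1.06 and 1.04 between genotypes and of 0.03 and 0.01 with SD. Its 4 values fell into a low WT pair and a high G93A pair. Trim25, a ligase that activates RIG-I, had 1.88, 1.60, 2.78 and 3.12 RPKM, with log2 fold changes of 0.54 and 0.92, of which only that under SD was called. Usp18, which removes ISG15 from proteins and dampens the type I receptor, had 0.980, 0.569, 1.28 and 1.05 RPKM and was called lower in WT + SD.

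The IFIT proteins bind RNA that lacks the marks of the cell's own messengers. None of the 3 reached 1.5-fold in G93A vehicle against WT vehicle, where their log2 fold changes lay between 0.47 and 0.53, and all 3 were called higher in G93A + SD against WT + SD. Ifit3, at chr19:34583531-34588731, had 8.10, 4.41, 11.3 and 13.5 RPKM, log2 fold changes of 0.47 and 1.59 between genotypes. Ifit1 had 2.28, 1.25, 3.29 and 3.65 RPKM, with 0.51 and 1.47. In these 2 genes the WT + SD library stood lowest, by 0.86 and 0.81 below WT vehicle on the log2 scale, and G93A + SD highest. Ifit2 had 5.43, 5.20, 7.91 and 10.3 RPKM, with 0.53 and 0.97, and its WT libraries differed by only 0.06. Of the 53-base windows of the Ifit3 transcript, 49.9% also occur in Ifit3b, so that the values of Ifit3 may hold reads of its copy. For Ifit1 this share was 6.84%.

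The oligoadenylate synthetases (OAS) make a messenger that activates RNase L against RNA. Oasl2, a relative of them and the most abundant here, had 2.27, 1.32, 3.51 and 3.65 RPKM, log2 fold changes of 0.61 and 1.41, and was called lower in WT + SD by 0.74. The other 4 were low. Oas1a ranged from 0.178 RPKM in WT vehicle to 0.770 in G93A + SD and was called higher in both genotype comparisons, with 55.9% of its 53-base windows shared with Oas1g. Oas1b ranged from 0.301 to 0.542 RPKM, Oas2 from 0.039 to 0.123 RPKM and Oas3 from 0.00831 to 0.0296 RPKM, the last of these resting on an estimated 1.5 to 5.4 read pairs per library. Oas1b and Mx2 are annotated as polymorphic pseudogenes, genes that are intact in some mouse strains only.

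The restriction factors of membranes gave the largest differences by family, with median log2 fold changes of 1.62 under vehicle and 1.89 under SD. Ifitm3, which keeps viruses from fusing with the cell, was the most abundant gene of the list on average and had 14.02, 12.1, 43.3 and 55.6 RPKM, log2 fold changes of 1.62 and 2.19. Bst2, or tetherin, which holds budding virus at the surface, had 2.40, 1.70, 9.64 and 9.77 RPKM, with 1.96 and 2.45. For both, the lower G93A library was above the higher WT library by over 3-fold. Ifitm2 had 3.88, 4.42, 12.2 and 13.6 RPKM, with 1.63 and 1.60, but 47.8% of its 53-base windows also occur in other genes, most of them in Gm45717. Ifitm1 had 1.08, 1.06, 1.36 and 2.38 RPKM and was called higher only in G93A + SD, both against WT + SD (1.09) and against G93A vehicle (0.76). The other 3 libraries of Ifitm1 lay close together.

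Mx GTPases, viperin and genes placed with them had median log2 fold changes of 0.38 and 0.68, and the OAS family 0.39 and 0.68. Mx1, a GTPase that traps viral particles, ranged from 0.0201 RPKM in WT + SD, an estimated 2.1 read pairs, to 0.411 in G93A vehicle. Mx2 ranged from 0.7602 to 1.24 RPKM and Rsad2, which encodes viperin, from 0.315 to 0.909 RPKM. Samd9l, an antiviral regulator of translation, had 1.14, 0.999, 1.51 and 1.66 RPKM, with 0.38 and 0.68. Cmpk2, a mitochondrial nucleotide kinase whose gene lies next to Rsad2 on chromosome 12, went the other way with 11.9, 11.9, 7.86 and 7.51 RPKM, log2 fold changes of -0.59 and -0.66. Its WT libraries were equal within 0.01 on the log2 scale and both lay above the G93A libraries, while Rsad2 had its 2 highest values in G93A.

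Guanylate binding proteins and immunity related GTPases attack the membranes of vacuoles that hold microbes, and many of them answer to interferon gamma. Of the 5 found, 4 were called higher under vehicle and all 5 under SD, with medians of 1.09 and 1.40. Gbp2 had 2.58, 1.97, 6.35 and 8.57 RPKM, log2 fold changes of 1.27 and 2.07. Gbp3 had 1.83, 1.62, 5.23 and 6.08 RPKM, with 1.47 and 1.85. Irgm1 had 5.62, 4.85, 12.1 and 12.9 RPKM, with 1.09 and 1.40. In these 3 genes every G93A value was over 2-fold above every WT value. Igtp had 2.56, 1.97, 3.87 and 4.08 RPKM, with 0.58, which stays short of 1.5-fold once 0.1 RPKM is added to each value, and 1.01. Its exons overlap those of Irgm2, with 11.7% of its 53-base windows shared. Iigp1 had 0.748, 0.583, 1.34 and 1.35 RPKM, with 0.76 and 1.09.

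The remaining 6 genes were all called higher under SD and 4 of them under vehicle. Lgals3bp, the galectin 3 binding protein, had 9.73, 6.71, 42.7 and 38.2 RPKM, log2 fold changes of 2.12 and 2.49, the largest of any gene of the list with a mean of at least 1 RPKM. Parp14, an ADP-ribosyltransferase, had 0.725, 0.592, 1.51 and 1.64 RPKM, with 0.96 and 1.33. Rtp4, a receptor transporter, had 1.72, 1.25, 2.52 and 2.61 RPKM, with 0.53 and 1.001. Each of these had its 2 WT values below its 2 G93A values and WT + SD as the lowest. Xaf1, a partner of an inhibitor of apoptosis, had 2.27, 1.79, 2.93 and 3.12 RPKM, with 0.35 and 0.77. Ifi44 ranged from 0.236 to 1.22 RPKM. Ifi35, a partner of the interferon-induced protein NMI, had 0.554, 1.70, 1.77 and 2.79 RPKM, so that WT vehicle alone stood low and the other 3 libraries lay closer together.

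**Figure D2:**
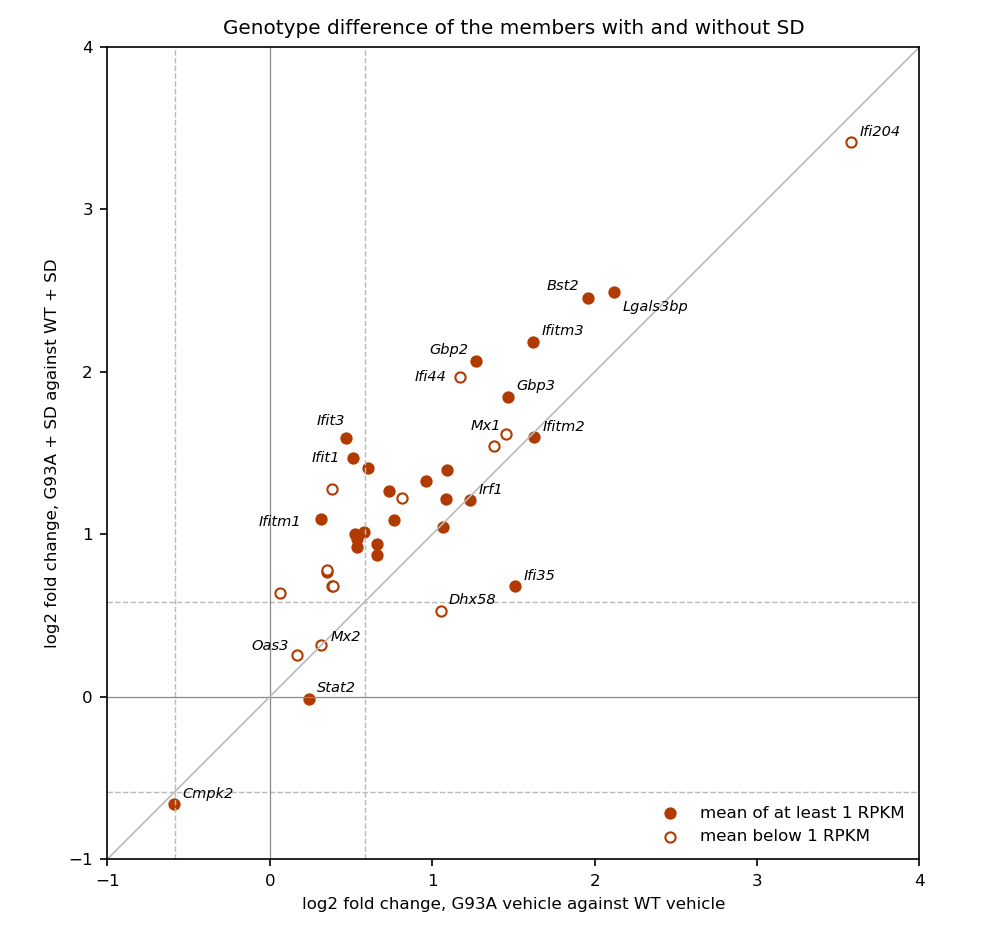
Log2 fold change of each gene between genotypes under vehicle (horizontal axis) and under SD (vertical axis), with dashed lines at 1.5-fold, the diagonal in grey, and open circles for genes with a mean below 1 RPKM. Most points lie above the diagonal, 32 of 40, while Ifi35 and Dhx58 lie below it and Cmpk2 is alone in the lower left. The height above the diagonal equals the SD difference in G93A minus that in WT, with a median of 0.37, against 0.00 over all names.

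Across the 40 genes, the 2 genotype log2 fold changes had a Pearson correlation of 0.85 and a Spearman correlation of 0.75, a description over genes that come from the same 4 libraries and are not independent of each other.

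The comparison of WT + SD with WT vehicle asks how these genes differ with SD in mice without the transgene. Here 9 of the 40 genes were called lower, against 2.8% of all names, and 2 higher, against 2.25% of all names. With 1 RPKM added in place of 0.1, 1 gene was called lower, against 0.444% of all names, and 1 higher, against 0.268%. The median log2 fold change was -0.24 (-0.11 with 1 RPKM added), against 0.00 over all names, and 32 of the 40 values were below 0. The genes called lower were Ifit3, Ifit1, Oasl2, Irf7, Usp18, Zbp1, Ifi204, Oas2 and Mx1, and the first 4 of these had a mean of at least 1 RPKM, 4 of 28 such genes against 1.16% of all names at that level. None of the 9 reached 2-fold on this scale. Not every gene of the list went with them, since Isg15 differed by 0.03, Ifit2 by -0.06, Irf9 by -0.12 and Irf1 by 0.09 on the log2 scale. The 5 guanylate binding proteins and immunity related GTPases lay between -0.38 and -0.17 and the 4 membrane factors between -0.47 and 0.19, with none called. Among the 34 genes with at least 20 estimated read pairs in every library, 5 were called lower, because Zbp1, Ifi204, Oas2 and Mx1 dropped out. A share over all names was not computed with that filter.

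The 2 genes called higher in WT + SD were Ifi35 (1.46) and Dhx58 (0.71). Both had their lowest value in WT vehicle, an estimated 27.7 and 31.3 read pairs. Of the 53-base windows of Ifi35, 10.3% also occur in Gm11626, and exons of Dhx58 overlap Dhx58os on the other strand.

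In G93A spinal cord, fewer of these genes were called with SD. In G93A + SD against G93A vehicle, 3 of the 40 genes were called higher, against 2.97% of all names, namely Ifitm1 (0.76), Ifi35 (0.63) and Ifi44 (0.59), and 0 with 1 RPKM added in place of 0.1, against 0.6% of all names. Ifi204 was called lower, at 2.44 RPKM in G93A vehicle and 1.09 in G93A + SD, against 2.55% of all names, and still with 1 RPKM added, against 0.455%. The remaining 36 genes were called neither way, the median log2 fold change was 0.08 against 0.01 over all names, and 30 of the 40 values were above 0. Gbp2 (0.43), Ifit2 (0.38), Ifitm3 (0.36) and Rsad2 (0.36) came next, all short of the threshold. The shares called in either direction, 7.5% and 2.5%, rest on 4 genes.

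Set side by side, the SD differences were below 0 in WT for 32 of the 40 genes and above 0 in G93A for 30. In G93A they were mostly small, with a median of 0.08 and 36 genes called neither way. Of the 40 genes, 24 had a negative SD difference in WT and a positive one in G93A, whatever the size, which is 60% against 22.1% of all names. Where the mean reached 1 RPKM this held for 20 of 28 genes, against 21.5% of the 12987 names at that level. The reverse pattern, higher in WT + SD and lower in G93A + SD, held for 2 genes, and its share over all names was not computed. No gene was called in opposite directions. Across the 40 genes, the SD log2 fold changes in WT and in G93A had a Pearson correlation of 0.50 and a Spearman correlation of 0.40, so that genes lower in WT + SD tended to rank low in G93A too, a description over genes of the same 4 libraries. WT + SD was the lowest of the 4 libraries for 32 genes, against 25.1% of all names, and G93A + SD the highest for 30, against 36.7%. The SD log2 fold change in G93A minus that in WT had a median of 0.37 over the 40 genes and of 0.00 over all names, and it has no error with 1 library per condition. It equals the genotype difference under SD minus that under vehicle. The wider genotype contrast under SD is thus the same observation and not a second one.

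**Figure D3:**
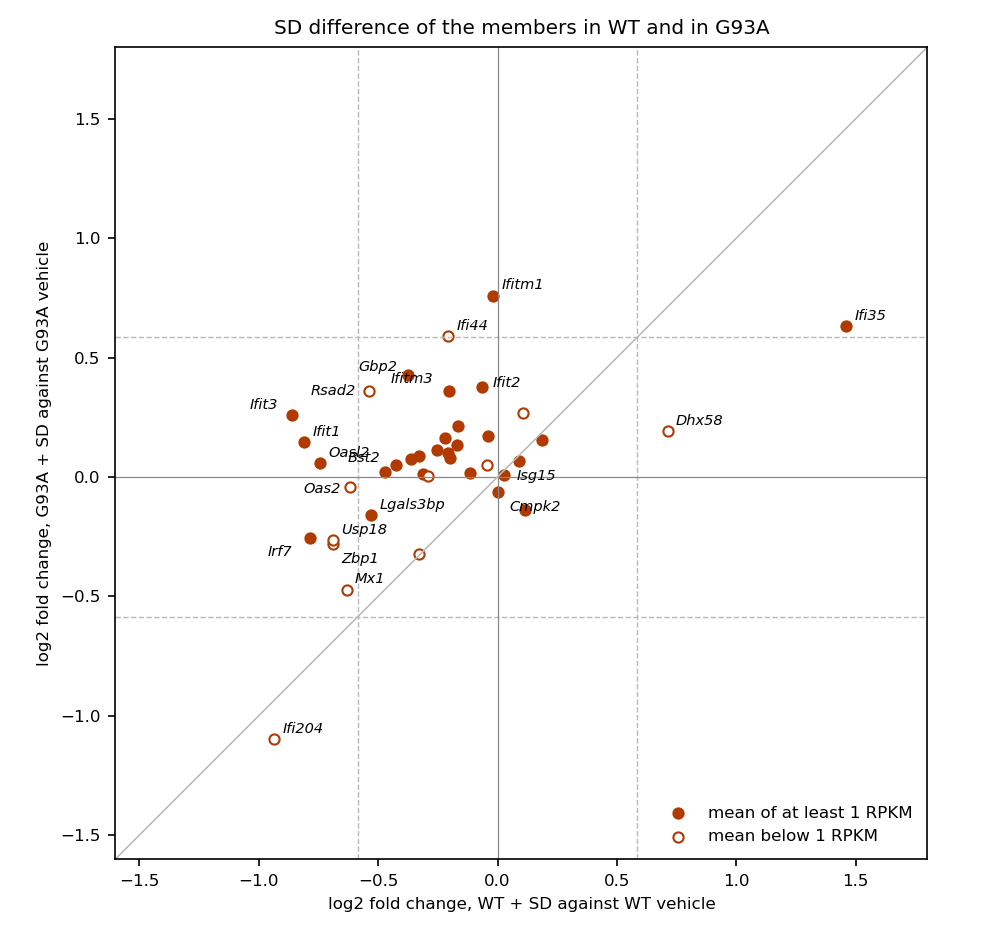
Log2 fold change of each gene with SD in WT (horizontal axis) and in G93A (vertical axis), with dashed lines at 1.5-fold, the diagonal in grey, and open circles for genes with a mean below 1 RPKM. Most points lie at the upper left, 24 of 40, with Ifit3 and Ifit1 at its left edge and Ifi35 far to the right.

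**Figure D4:**
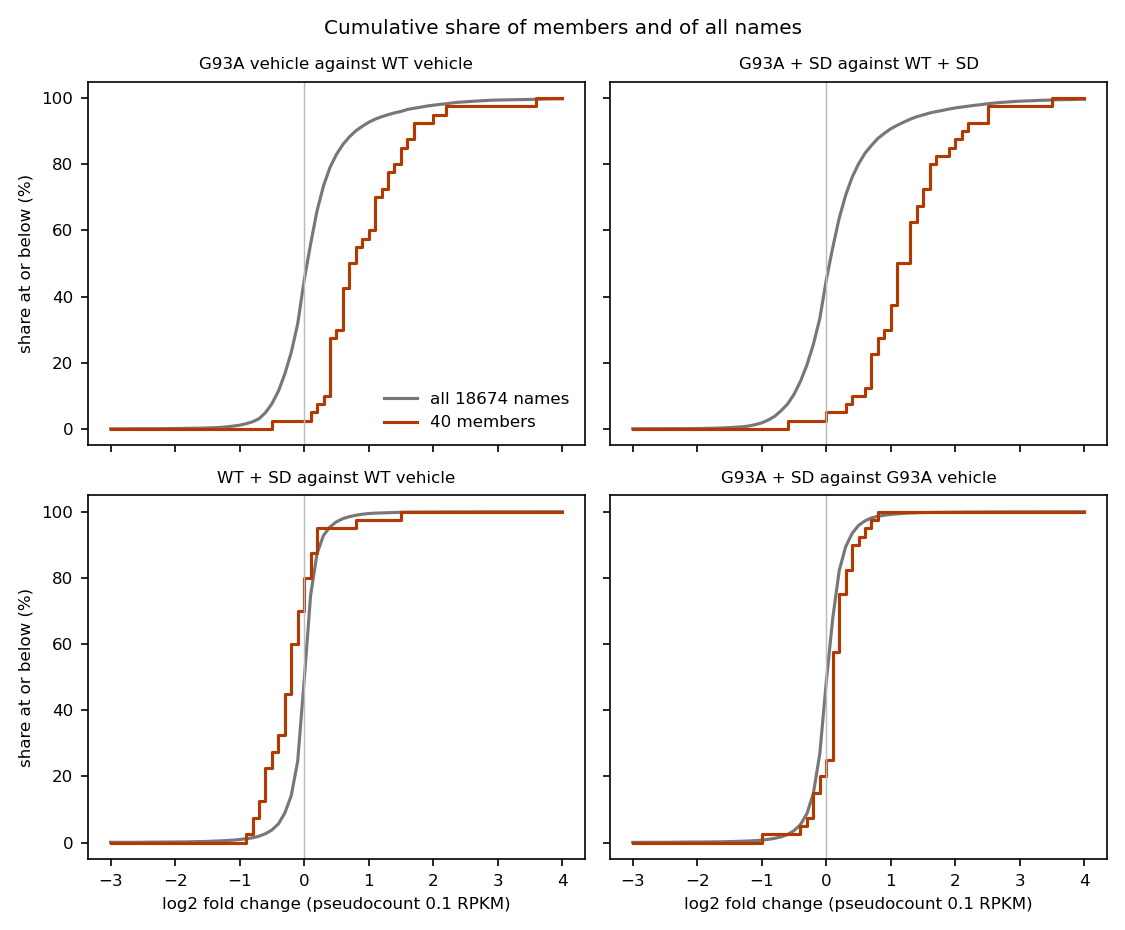
Share of the 40 genes (orange steps) and of all 18674 names (grey line) with a log2 fold change at or below the value on the horizontal axis, in each of the 4 comparisons. The steps lie well to the right of the line in both genotype comparisons, to its left in WT + SD against WT vehicle, and slightly to its right in G93A + SD against G93A vehicle.

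Genes upstream of the response were looked up from lists of the pathway. Of 20 interferon genes, 3 had a row, Ifnb1, Ifnk and Ifnz, and their levels were between 0 and 0.0342 RPKM, with all 3 listed at 0 in G93A + SD. The other 17 had no row, and nothing is said of them here. Of 13 receptors, kinases and STAT partners, 5 were called higher in both genotype comparisons, against 11.6% of all names, and none lower. The type I receptor chain Ifnar2 had 5.73, 5.996, 12.2 and 12.8 RPKM and its partner Ifnar1 had 5.996, 6.66, 8.19 and 8.74 RPKM, log2 fold changes of 1.07 and 1.09 for Ifnar2 and of 0.44 and 0.39 for Ifnar1. The gamma receptor chain Ifngr1 had 7.84, 8.36, 17.7 and 20.5 RPKM, with 1.16 and 1.28, and Ifngr2 had 15.7, 15.9, 18.0 and 19.5 RPKM, with 0.20 and 0.29. In both of these receptors one chain was called and the other was not. Il10rb, a chain of the type III receptor named here after its values were seen, had 4.15, 5.40, 12.5 and 14.2 RPKM, with 1.57 and 1.37, and was called higher in both. The other two genes called, likewise named after their values were seen, were the negative regulators Socs3 (0.424, 0.328, 6.82 and 9.47 RPKM, with 3.72 and 4.48) and Ptpn6 (1.46, 1.66, 8.67 and 9.52 RPKM, with 2.50 and 2.45). Jak1 had 42.3, 42.7, 38.6 and 36.5 RPKM, with -0.13 and -0.23, Jak2 had 11.6, 12.4, 13.2 and 14.7 RPKM, with 0.19 and 0.24, and Tyk2 had 2.45, 2.29, 3.18 and 3.09 RPKM, with 0.36 and 0.42. Pias1, an inhibitor of STAT signalling, had 10.2, 10.1, 8.86 and 9.76 RPKM. None of the 3 kinases was called. With SD, no gene of this list was called in WT, and Socs1 alone was called lower in G93A.

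Genes around nucleic acid sensing, which are further sensors such as Tlr3 and Aim2, the adaptors and kinases that lead to interferon, and enzymes such as Adar, Trex1 and Samhd1 that alter or remove nucleic acid and restrain the response, numbered 21, of which 10 were called higher under vehicle, against 14.4% of all names, and 13 under SD, against 17.1%, none lower. The 5 most abundant on average were Adar (27.6, 27.5, 26.4 and 21.2 RPKM), Tbk1 (12.9, 13.3, 12.4 and 11.95 RPKM), Tlr3 (8.74, 8.56, 11.5 and 15.8 RPKM), Traf3 (11.0, 11.8, 10.03 and 8.69 RPKM) and Unc93b1 (4.25, 3.23, 14.7 and 16.4 RPKM). Of these, Unc93b1, which escorts nucleic acid sensing Toll-like receptors, was called higher in both genotype comparisons (1.77 and 2.30) and Tlr3 under SD only (0.88).

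Another 49 interferon-stimulated genes, outside the 40 and found from a list of 56, were also often called higher in G93A. Under vehicle 25 were called higher, against 14.4% of all names, and under SD 35, against 17.1%, with medians of 0.60 and 1.09, and 0 and 1 were called lower. In WT + SD, 8 were called lower, against 2.8% of all names, and 1 higher, against 2.25%, with a median of -0.11. With SD in G93A, 4 were called higher, against 2.97% of all names, and 3 lower, against 2.55%, with a median of 0.12. The 5 with the highest means were Ly6e (29.6, 29.6, 38.8 and 39.6 RPKM), Stat3 (17.8, 17.6, 34.5 and 37.4 RPKM), Shisa5 (15.3, 15.6, 32.4 and 36.8 RPKM), Ly6a (23.1, 17.8, 21.8 and 18.5 RPKM) and Tdrd7 (13.5, 14.2, 14.7 and 14.7 RPKM). Stat3 and Shisa5 were called higher in both genotype comparisons, while the other 3 of these were not called.

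The summed markers of microglia and of astrocytes were higher in G93A, while the log2 fold changes of 5 of the 7 oligodendrocyte markers under vehicle and of 6 under SD were below 0, with medians of -0.23 and -0.38. The 13 microglia and macrophage markers had median log2 fold changes of 2.28 under vehicle and 2.67 under SD, with 11 and 12 of them called higher, none at 0 in any library, and P2ry12 at 0.07 and 0.28. Their summed level was 5.84 and 6.77 times as high in G93A, against 2.16 and 2.75 times for the 40 interferon-stimulated genes. Only Ifi204 had a log2 fold change above the microglial median in either comparison. The 8 astrocyte markers had medians of 0.57 and 0.81, with 4 and 5 called higher. Gfap, with 441, 386, 2269 and 2707 RPKM, held most of their sum in G93A. Slc1a2 (-0.01), S100b (-0.18) and Fgfr3 (-0.21) were below 0 under vehicle, and S100b alone (-0.24) under SD. Markers of plasmacytoid dendritic cells, strong producers of type I interferon, numbered 6, with 3 called higher under vehicle, and 2 higher and 1 (Ly6d) lower under SD. Their summed levels were 22.1, 23.6, 37.2 and 40.8 RPKM, of which Tcf4, not called, made up 15.6, 16.8, 20.1 and 22.8 RPKM. Bst2 is one of the 6, Siglech, which microglia also express, had between 4.03 and 8.18 RPKM, and Spib and Ccr9 stayed between 0.0093 and 0.0472 RPKM and were not called. The 11 T and NK cell markers, all low, summed to 5.83 and 3.26 times as much in G93A under vehicle and under SD, with 5 and 3 of them called higher, and to 3.22 times in WT and 1.801 times in G93A with SD. Blood monocyte and neutrophil markers numbered 6 and summed to 1.11, 0.966, 2.55 and 1.10 RPKM, with 3 called higher in G93A under vehicle, and 2 called lower and 1 higher with SD in G93A. In WT + SD against WT vehicle, 8 of the 13 microglial markers were below 0, with none called, a median of -0.14 and a summed level 0.920 times that of WT vehicle, against 0.853 times for the 40 genes. In G93A + SD against G93A vehicle the microglial median was 0.15, with Fcrls alone called higher. With SD, 5 of the 8 astrocyte markers were below 0 in WT, with a median of -0.08. In G93A, 7 of the 8 were above 0, with a median of 0.22, and none was called in either genotype. The part of these cells in the interferon values was not tested.

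**Figure D5:**
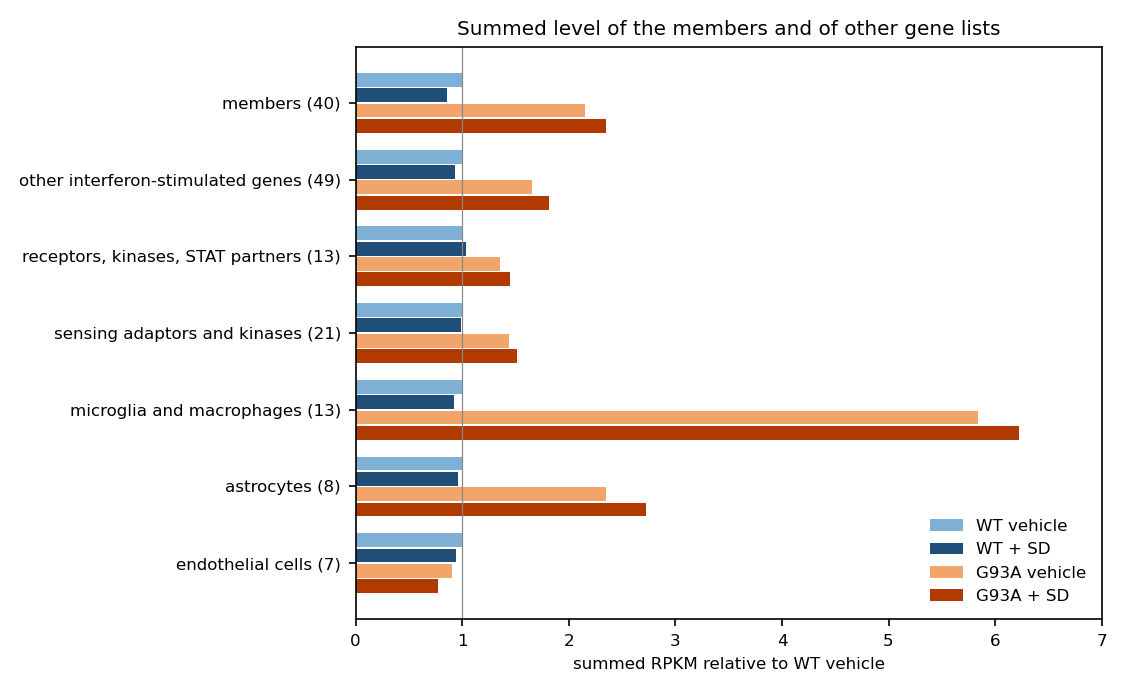
Summed RPKM of the 40 interferon-stimulated genes and of other gene lists in each library, divided by the sum in WT vehicle, with the number of genes found in brackets. In the G93A libraries the 40 genes stand at 2.16 and 2.35 times WT vehicle, the microglia and macrophage markers at 5.84 and 6.23 times, and endothelial markers below 1.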

How the data were processed

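RNA of lumbar spinal cord was sequenced in 4 libraries, 1 per condition, grouped by the sample titles. The authors deposited 1 table with 1 value column per library, and all per-sample columns were used. Its values were taken as RPKM as deposited, a unit inferred because the sums of value times transcript length were nearly equal between libraries. Per the submitters' processing notes reads were aligned with STAR to GRCm38, and the methods name HTSeq counts on an Ensembl gene set, while the table lists RefSeq transcripts. Whether counting used strand is not given in the sources used here, so that reads of genes that overlap on opposite strands cannot be told apart. Ratio columns of the authors were not used.

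Rows of 1 gene name were averaged (9 of the 40 genes have several rows). A gene was called where the log2 ratio of RPKM + 0.1 reached 1.5-fold, without a test. Every gene of the list with a mean of at least 1 RPKM is given with its level in all libraries, the 12 others by their range, and of each pathway list the 5 with the highest means, the type I and gamma receptor chains, Jak1 and Tyk2. One gene that this rule names is not reported here. The list, its grouping and the other lists were chosen with earlier results of these data known. Read pairs behind a gene were estimated from the commonest low value of RPKM times transcript length, so that no counting interval is given. Windows of 53 bases, the read length, were searched for in the GENCODE M21 transcripts of every other gene. Alternatives were pseudocounts of 1 RPKM and of none, median-ratio scaling, a mean of at least 1 RPKM, the row with the highest mean and a 2-fold threshold, and, added after seeing the data, filters on estimated read pairs and on shared windows. The tools were pandas 2.3.3 and numpy 2.4.6 under Python 3.11.15, with plots by matplotlib 3.10.9. The calling code was also run on simulated data with abundant genes, large changes and counting noise only. That run says nothing of low genes, of changes near 1.5-fold or of differences between animals.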

Additional observations from a re-analysis of the deposited data

Results flagged for a closer look

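The median difference with SD had opposite signs in WT and in G93A, while 8 of the 40 genes were lower and 6 higher with SD in both. Over the 40 genes the median log2 fold change with SD was -0.24 in WT and 0.077 in G93A, against 0.00 and 0.01 over all names. By family, the 3 IFIT genes had medians of -0.81 and 0.26, and the 4 membrane restriction factors had -0.11 and 0.26. With 1 library per condition the difference between the genotypes was not tested, and none of these genes was called in opposite directions. Ifit3 shares 49.9% of its 53-base windows with Ifit3b and Ifitm2 shares 47.8% with other genes.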

How the results depend on the processing

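Directions of the medians held under every alternative. With a pseudocount of 1 RPKM the called genes fell to 12 higher and 0 lower in G93A vehicle against WT vehicle, 1 higher and 1 lower in WT + SD, and 0 higher in G93A + SD against G93A vehicle, and the medians to 0.45 under vehicle, 0.70 under SD and -0.11 in WT + SD. This pseudocount shrinks the change of low genes by construction. Without a pseudocount the genotype medians were 0.81 and 1.33, and 2 genes were lower in G93A + SD against G93A vehicle. With a mean of at least 1 RPKM, 1 gene was higher and 4 lower in WT + SD, and 0 lower in G93A + SD against G93A vehicle. At 2-fold, 0 genes were lower in either genotype comparison, 1 was higher and 0 lower in WT + SD, and 0 were higher in G93A + SD against G93A vehicle. With at least 20 estimated read pairs, a filter chosen after seeing the data, 5 were lower in WT + SD and 0 in G93A + SD against G93A vehicle. With under 10% of windows shared, also chosen after seeing the data, 1 was higher in WT + SD and 0 lower in G93A + SD against G93A vehicle. Shares over all names were not computed without a pseudocount, at 2-fold or with the filters on read pairs and windows. The other 69 recomputed counts and medians stayed within 1.5 times the count or 0.1 of the median. No called gene changed direction. No paired analysis was possible because each condition has 1 library. Genes near 1 read pair, such as Ifi204 and Oas3 in WT + SD, are not resolved at this depth.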

Other observations

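Neighbours of Ifi204 on chromosome 1 were looked at after their values had been seen. Mndal, another IFI200 gene there, had 0.232 and 0.0411 RPKM in the WT libraries (vehicle, then SD) and 0.377 and 0.0666 RPKM in the G93A libraries, and Ifi203 had 0.3002, 0.178, 0.375 and 0.195 RPKM in the same order, so that within each genotype the SD library was the lower one for both, as it was for Ifi204, while the 2 lowest values of Ifi204 were those of WT. Ifi202b, in the same cluster, had 0.0753, 0.160, 0.0293 and 6.69 RPKM, high in the G93A + SD library alone. Aim2, a DNA sensor of the family, had 1.11, 0.913, 3.73 and 3.49 RPKM, which separate by genotype.

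Dhx58 and Ifi35, the genes called higher in WT + SD, lie within 0.764 Mb of each other on chromosome 11, between positions 100694884 and 101458698 of GRCm38. Of the 23 names in that stretch with a mean of at least 1 RPKM, Ifi35 alone was called higher in WT + SD and 0 were called lower, with a median log2 fold change of -0.03. Rpl27, the gene next to Ifi35, had 0.298, 0.829, 0.903 and 0.6996 RPKM, likewise lowest in WT vehicle.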
